A study of Mus musculus with 17 samples.

Results

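Arginine is taken into a myeloid cell and then used along competing routes, and 7 genes of those routes are described here in splenic myeloid cells of naive and tumor-bearing mice. They are the arginases Arg1 and Arg2, the inducible nitric oxide synthase Nos2, the cationic amino acid transporters Slc7a2 and Slc7a1, the ornithine decarboxylase Odc1 and the argininosuccinate synthase Ass1. They were listed by name for their roles in arginine use, with earlier results of these data known. Of these 7 genes, 6 had a feature (a set of array probes summarised to one value) that carried their symbol alone, among 19938 genes with such a feature. Ass1 was measured only by 2 features shared with the predicted gene Gm5424, so those features are described apart and are not attributed to either gene.

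The 17 samples, hybridised to Affymetrix Mouse Gene 1.0 ST arrays, were all from female BALB/c mice with no genetic change named. Magnetically enriched CD11b+ spleen cells were sorted into a monocytic subset with high Ly-6C and low Ly-6G (Mo) and a polymorphonuclear subset with low Ly-6C and high Ly-6G (PMN). Each subset came from naive mice and from mice that had received 100000 Her-2/CT26 cells under the skin 3 or 6 weeks earlier; CT26 is a BALB/c colon carcinoma line. The Mo groups held 3 arrays each, and the PMN groups held 4 naive arrays, 2 at 3 weeks and 2 at 6 weeks. The labels name both subsets as myeloid-derived suppressor cells (MDSC), the naive ones included. Spleens were pooled, and whether the replicates came from separate pools is not given, so the spread behind the p-values may be technical. The study asked what makes these cells more suppressive as tumors grow.

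Arginase cleaves arginine to ornithine and urea, and nitric oxide synthase turns it into nitric oxide and citrulline. Both uses by myeloid cells are known for limiting T cells, which need extracellular arginine. Arg1 is the cytosolic arginase and Arg2 the mitochondrial one, Slc7a1 and Slc7a2 carry arginine across the cell membrane, Odc1 makes the first polyamine from ornithine, and Ass1 joins citrulline to aspartate on the way back to arginine.

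Slc7a1 and Odc1, the latter with its feature of higher mean, were above background on all 17 arrays and moved apart between the subsets, and the RefSeq promoter table (GRCm38.p6) held windows for both, so the 250 bases before one annotated start of each are shown. For Odc1 this rests on that feature. Its other feature was below the limit on 1 array, naive PMN replicate 3 (6.87 against 7.24, log2 intensity), and gave no call for the difference between subsets. Of the 20 features nearest in number to the one of higher mean, 20 were annotated to chromosome 8. Around the other feature, 17 of 20 were annotated to chromosome 12, where Odc1 and the window shown lie. The Slc7a1 window is chr5:148399905-148400154 on the minus strand and the Odc1 window is chr12:17544623-17544872 on the plus strand. Capitals mark the GC box GGGCGG, or CCGCCC where it lies on the opposite strand.
Slc7a1: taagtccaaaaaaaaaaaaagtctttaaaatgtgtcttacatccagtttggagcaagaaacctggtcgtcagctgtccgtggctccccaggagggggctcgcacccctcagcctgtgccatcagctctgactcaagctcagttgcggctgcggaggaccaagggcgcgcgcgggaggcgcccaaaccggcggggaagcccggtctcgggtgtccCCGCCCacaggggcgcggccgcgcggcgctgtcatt
Odc1: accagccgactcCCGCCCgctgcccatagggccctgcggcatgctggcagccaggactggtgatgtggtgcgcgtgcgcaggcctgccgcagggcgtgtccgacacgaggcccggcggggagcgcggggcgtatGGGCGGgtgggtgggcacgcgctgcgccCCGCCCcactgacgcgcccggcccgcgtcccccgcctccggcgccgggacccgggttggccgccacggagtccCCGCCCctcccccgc
The Odc1 window held 4 GC boxes, 238, 116, 88 and 15 bases before the start, and the Slc7a1 window held 1, 36 bases before its start. At least 1 GC box was present in 32.74% of the 32851 promoter windows of this length. Neither window held the E box CACGTG (present in 6.02% of windows, on either strand), the cAMP response element TGACGTCA (1.55%), the CCAAT box (33.85%) or the TATA box TATAAA (12.37%). The table also held a window for a second start of Slc7a1, which had no GC box and 1 TATA box, and one for Ass1. The windows shown here were 62.4% G and C in Slc7a1 and 80.0% in Odc1. Arg1, Arg2, Nos2 and Slc7a2 are named only.

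The sorted cells carried the markers of their gates, and also some of the other gate. Of 5 measured monocyte markers (among them Ccr2 and Csf1r), all were above background in every Mo group. Of 6 neutrophil markers (among them Ly6g and Cxcr2), 5 or 6 were in every PMN group. Neutrophil markers above background numbered 1 of 6 in naive Mo cells and 4 at 6 weeks. Monocyte markers above it numbered 2 of 5 in naive PMN cells and 4 at 6 weeks. The summed linear intensity of the 5 monocyte markers was 1320 to 1971 in naive PMN cells and 1378 to 1439 at 6 weeks. Genes of dividing cells and of granulocyte precursors were higher at 6 weeks in both subsets: the summed linear intensity of 6 proliferation markers was 649 to 1515 in naive Mo cells and 5783 to 11024 at 6 weeks, against 628 to 691 and 3853 to 4695 in PMN cells. The summed level of 6 precursor markers was 626 to 828 and 5168 to 12270 in Mo cells, and 4982 to 6004 and 15842 to 17605 in PMN cells. Markers of lymphoid cells were lower at 6 weeks. Of 5 measured B cell markers, 5 were called lower in PMN cells (median change -1.68), where their summed level was 2267 to 2555 in naive mice and 787 to 857 at 6 weeks, and 4 in Mo cells (median -0.77), where it was 695 to 1395 and 461 to 641. Of 6 T and NK cell markers, 5 were called lower in Mo cells (median -1.01; summed level 820 to 1225 and 381 to 496) and 4 in PMN cells (median -0.44; 804 to 1116 and 623 to 638). The part of lymphoid cells in the falls given here was not tested. In sorted bulk RNA, fewer cells of a type and less RNA per cell cannot be told apart.

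Background was set on each array as the 95th percentile of 1194 olfactory and vomeronasal receptor genes, which are made mainly by sensory neurons of the nose. That limit lay between 6.35 and 7.29 (log2 intensity) on Mo arrays and between 6.55 and 7.34 on PMN arrays. It was lower at 6 weeks: 6.95 to 7.29 in naive Mo against 6.35 to 6.82 at 6 weeks, and 7.06 to 7.34 in naive PMN against 6.55 and 6.59 at 6 weeks. The median receptor gene changed by -0.33 in Mo cells and -0.36 in PMN cells from naive to 6 weeks, and 593 and 684 of the 1194 receptor genes were called lower. Every fall of a dim gene below stands beside these values.

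Of the 6 genes, 4 (Arg2, Nos2, Slc7a1 and Odc1) were above background on most arrays of at least 1 group. Slc7a1 and Odc1 were above it on 17 of 17 arrays, Arg2 on 13, Nos2 on 2, and Arg1 and Slc7a2 on 0. In single groups, 28.54% of all genes were above background in naive PMN cells and 57.62% in Mo cells at 6 weeks, the lowest and highest of the 6 groups. Arg2, Slc7a1 and Odc1 were above it in naive PMN cells, and these and Nos2 in Mo cells at 6 weeks. The share of all genes above it in at least 1 group is not given, so the 4 of 6 genes are not set against it. At a stricter limit, the 99th percentile of the receptor genes, Nos2 was above it in no group, Arg2 was no longer above it in Mo cells at 3 weeks, and Slc7a1 was no longer above it in naive PMN cells.

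**Figure D1:**
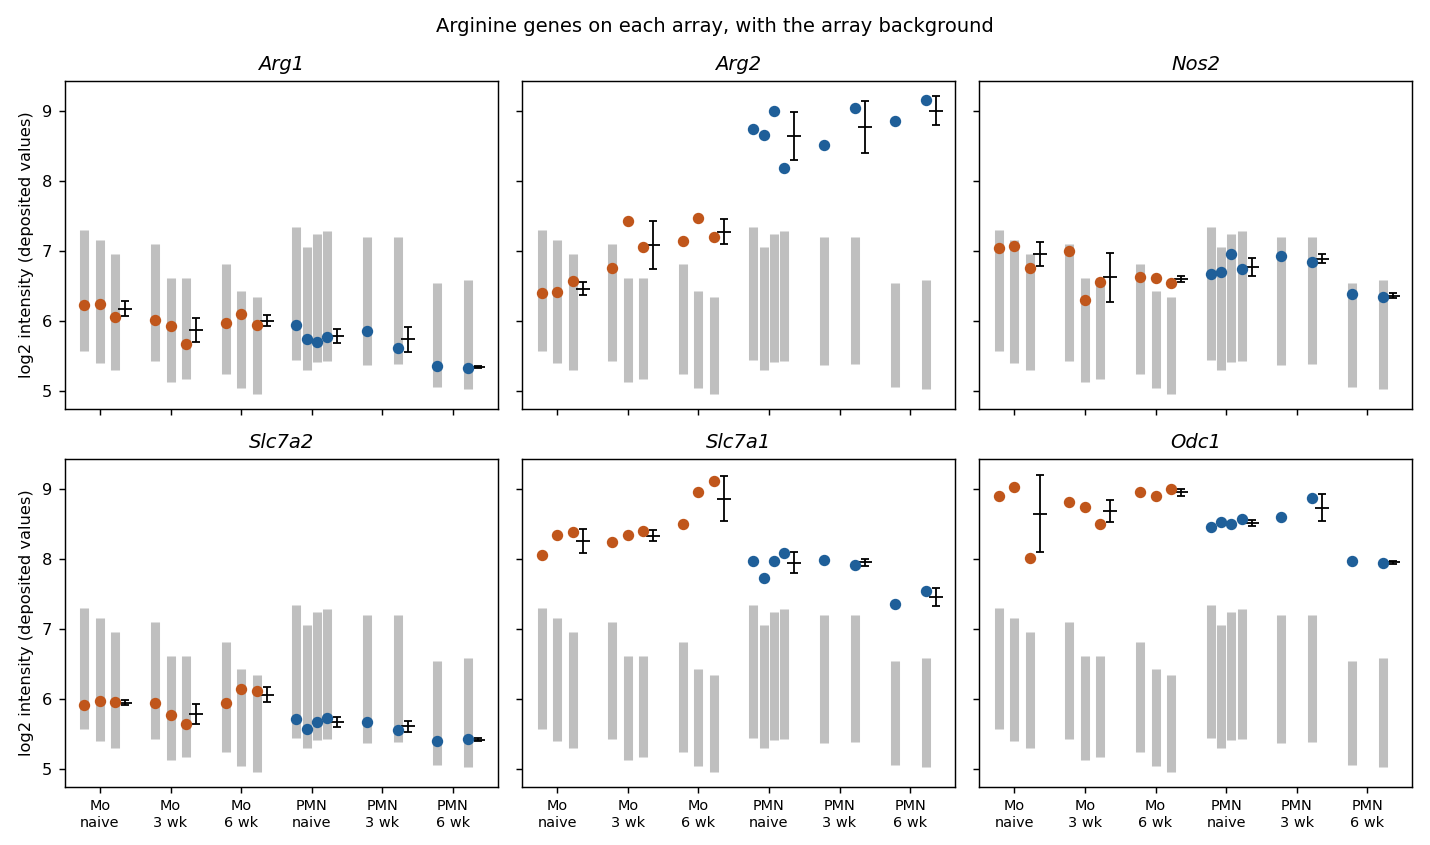
Log2 intensity of the 6 genes (points, 1 per array) in the 6 groups, with the group mean and SD in black and a grey bar per array from the median of the receptor genes to their 95th percentile. Arg1 and Slc7a2 lie inside the grey bars on all 17 arrays, while Slc7a1 and Odc1 lie above them on all 17.

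Arg2 was the arginase with measurable signal, and its level was higher in PMN than in Mo cells at every stage. Its levels in naive Mo cells were 6.40, 6.42 and 6.58 (log2 intensity, mean 6.46 ± 0.10 SD, n = 3), below background on all 3 arrays. They were 6.76, 7.43 and 7.06 at 3 weeks (7.09 ± 0.34 SD, n = 3) and 7.15, 7.48 and 7.21 at 6 weeks (7.28 ± 0.18 SD, n = 3). All 6 arrays from tumor-bearing mice were above all 3 naive arrays, while the arrays of 3 and 6 weeks overlapped. In PMN cells the levels were 8.75, 8.65, 8.9997 and 8.18 in naive mice (8.65 ± 0.34 SD, n = 4), 8.51 and 9.04 at 3 weeks (8.77 ± 0.37 SD, n = 2) and 8.86 and 9.15 at 6 weeks (9.005 ± 0.21 SD, n = 2). The PMN stages overlapped, and every PMN array was above background.

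From naive to 6 weeks Arg2 rose in Mo cells by 0.81 ± 0.19 on the log2 scale (SE), or 1.76-fold, with an adjusted p of 0.00453 in limma over the 19938 genes. The call held with each of the 17 arrays left out in turn, at changes of 0.71 to 0.88. Raised to the background limit on each array, the naive level gave a rise of at least 1.10-fold (0.14, adjusted p = 0.439), so the measured rise ran from below to above background. At 3 weeks the difference from naive Mo cells was 0.62 ± 0.19 (adjusted p = 0.0615, limma), which did not pass the threshold of 0.05; without the array of Mo replicate 1 at 3 weeks it was 0.78 (adjusted p = 0.00772). The change from 3 to 6 weeks was 0.19 ± 0.19 (adjusted p = 0.665). In PMN cells the difference between 6 weeks and naive was 0.36 ± 0.21 (adjusted p = 0.132). The Mo change minus the PMN change was 0.45 ± 0.28 (adjusted p = 0.328, limma), which did not pass. That outcome depended on the setting. The difference was 0.91 (adjusted p = 0.0276) after joint quantile normalization, where the PMN change was -0.04. It was -0.21 (adjusted p = 0.809) with values raised to background. With array weights, whose estimation did not converge, it was 0.63 (adjusted p = 0.0395).

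The subsets appeared to have been normalized apart, so levels of Mo and PMN cells were compared after quantile normalization over all 17 arrays. On that scale the order of mean Arg2 levels was PMN at 3 weeks (9.20 ± 0.33 SD), naive PMN (9.11 ± 0.33 SD), PMN at 6 weeks (9.07 ± 0.22 SD), Mo at 6 weeks (7.14 ± 0.16 SD), Mo at 3 weeks (6.94 ± 0.35 SD) and naive Mo (6.28 ± 0.14 SD). The 3 PMN groups did not differ beyond their spread, nor did the Mo groups of 3 and 6 weeks. In naive mice the Mo level minus the PMN level was -2.84 ± 0.18 on the log2 scale (adjusted p = 5.3e-10, limma). The naive Mo level being below background, this was a difference of at least 4.51-fold. At 3 weeks the Mo level minus the PMN level was -2.26 ± 0.21 (adjusted p = 9.53e-08) and at 6 weeks -1.93 ± 0.21, or 3.80-fold (adjusted p = 8.84e-07). These calls held on the deposited values and with each array centred on its median. Over all genes 60.6% were called between the subsets in naive mice (32.5% lower in Mo), 62.1% at 3 weeks (31.3% lower) and 48.7% at 6 weeks (21.8% lower).

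The summed neutrophil markers were higher in Mo cells of tumor-bearing mice, as Arg2 was, but the markers did not all rise. Their summed linear intensity was 1442 to 1606 in naive Mo cells, 1689 to 2014 at 3 weeks and 1808 to 3396 at 6 weeks. The same sum was 14503 to 25734 in PMN cells. Of the 6 markers, 0 were called in Mo cells at 3 weeks, and 3 were called higher and 1 lower at 6 weeks. Ly6g, 1 of the 6, was below background in naive Mo cells. It reached 8.95 (log2 intensity) in Mo replicate 2 at 6 weeks, the array with the highest Arg2 level of that subset. Without that array the Arg2 rise was 0.71 (adjusted p = 0.0271, limma). The part of PMN cells in the Arg2 rise was not tested.

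Arg1 was not above background on any array. Its levels were 6.22, 6.25 and 6.06 in naive Mo cells, 6.01, 5.93 and 5.68 at 3 weeks and 5.98, 6.10 and 5.95 at 6 weeks. In PMN cells they were 5.94, 5.74, 5.70 and 5.77 in naive mice, 5.86 and 5.62 at 3 weeks and 5.36 and 5.34 at 6 weeks. Between 58.7% and 89.0% of the receptor genes lay below Arg1 on a given array, so it stood inside the background range throughout. In Mo cells Arg1 did not pass the test in any stage comparison; the difference was -0.30 ± 0.10 at 3 weeks (adjusted p = 0.0766) and -0.17 ± 0.10 at 6 weeks (adjusted p = 0.183, limma). In PMN cells it fell by 0.44 ± 0.11 from naive to 6 weeks (adjusted p = 0.00284, limma), where the median receptor gene changed by -0.36. The 2 arrays of 6 weeks were below the other 6 PMN arrays.

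Nos2 was near the limit of background. The Mo levels were 7.05, 7.07 and 6.76 in naive mice (6.96 ± 0.17 SD, n = 3), 7.003, 6.31 and 6.56 at 3 weeks (6.62 ± 0.35 SD, n = 3) and 6.64, 6.61 and 6.55 at 6 weeks (6.60 ± 0.05 SD, n = 3). The PMN levels were 6.68, 6.69, 6.96 and 6.75 in naive mice (6.77 ± 0.13 SD, n = 4), 6.93 and 6.85 at 3 weeks (6.89 ± 0.06 SD, n = 2) and 6.39 and 6.34 at 6 weeks (6.36 ± 0.03 SD, n = 2). Only Mo replicates 2 and 3 at 6 weeks exceeded their background limits, which were 6.43 and 6.35, the lowest limits of the Mo arrays. The Nos2 level itself was no higher there than on naive Mo arrays: it fell by 0.36 ± 0.14 from naive to 6 weeks (adjusted p = 0.0427, limma), a change close to that of the median receptor gene. That call was lost with each array centred on its median (-0.24, adjusted p = 0.13), after joint quantile normalization (-0.18, adjusted p = 0.285) and in 11 of the 17 fits with 1 array left out (adjusted p 0.0502 to 0.139). In PMN cells Nos2 fell by 0.41 ± 0.15 from naive to 6 weeks (adjusted p = 0.0226) and by 0.53 ± 0.17 from 3 to 6 weeks (adjusted p = 0.0149). The latter call was lost with each array centred (-0.32, adjusted p = 0.106) and without PMN replicate 1 at 3 weeks (adjusted p = 0.0732) or PMN replicate 1 (0.0515) or 2 (0.0694) at 6 weeks.

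Slc7a2, the transporter often induced together with Nos2 or Arg1 in activated macrophages, was not above background on any array either. Its levels ran from 5.65 to 6.14 on the 9 Mo arrays and from 5.41 to 5.73 on the 8 PMN arrays. In Mo cells no stage comparison passed; the largest difference was 0.28 ± 0.09 between 3 and 6 weeks (adjusted p = 0.0813, limma). With joint quantile normalization that difference was 0.33 (adjusted p = 0.0253) and the one from naive to 6 weeks 0.31 (adjusted p = 0.0148), and with each array centred the latter was 0.24 (adjusted p = 0.0385), so the call depended on the scale. In PMN cells it fell by 0.26 ± 0.10 from naive to 6 weeks (adjusted p = 0.0273), a smaller change than that of the median receptor gene.

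Slc7a1, the widely expressed arginine transporter, moved in opposite directions in the 2 subsets at 6 weeks. Its levels in Mo cells were 8.06, 8.34 and 8.38 in naive mice (8.26 ± 0.17 SD, n = 3), 8.24, 8.35 and 8.40 at 3 weeks (8.33 ± 0.08 SD, n = 3) and 8.50, 8.96 and 9.12 at 6 weeks (8.86 ± 0.32 SD, n = 3). In PMN cells they were 7.98, 7.73, 7.98 and 8.09 in naive mice (7.94 ± 0.15 SD, n = 4), 7.98 and 7.92 at 3 weeks (7.95 ± 0.05 SD, n = 2) and 7.36 and 7.54 at 6 weeks (7.45 ± 0.13 SD, n = 2). In Mo cells the 3 arrays of 6 weeks were above the other 6, and in PMN cells the 2 arrays of 6 weeks were below the other 6. Naive and 3-week levels did not differ beyond their spread in either subset.

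In Mo cells Slc7a1 rose by 0.60 ± 0.14 from naive to 6 weeks, or 1.51-fold (adjusted p = 0.00355, limma), a call that held under all 27 other settings tried, at changes of 0.39 to 0.78. The rise from 3 to 6 weeks was 0.53 ± 0.14 (adjusted p = 0.023). That call was lost with each array centred on its median (adjusted p = 0.0569), with the Mo arrays fitted alone (adjusted p = 0.109), and without Mo replicate 1 (adjusted p = 0.0664) or 2 (0.063) at 3 weeks or Mo replicate 2 (0.113) or 3 (0.159) at 6 weeks. In PMN cells Slc7a1 fell by 0.49 ± 0.15 from naive to 6 weeks (adjusted p = 0.00826); the value was -0.29 (adjusted p = 0.162) with each array centred on its median, -0.40 (adjusted p = 0.0941) without PMN replicate 1 at 6 weeks, and -0.69 (adjusted p = 0.000365) after joint quantile normalization. The Mo change minus the PMN change from naive to 6 weeks was 1.09 ± 0.20 (adjusted p = 0.00125, limma), and this call held under all 26 other settings tried, at 0.96 to 1.27. From 3 to 6 weeks the same difference was 1.02 ± 0.22 (adjusted p = 0.00236). No difference passed from naive to 3 weeks (0.06 ± 0.20, adjusted p = 0.863), where 0.00502% of genes were called.

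The order of Slc7a1 levels between subsets depended on the scale. On the jointly normalized scale Mo cells had 0.79 ± 0.14 more than PMN cells at 6 weeks (adjusted p = 0.000179, limma), where 26.8% of genes were called higher in Mo cells, and this was 1.41 on the deposited values and 1.04 with each array centred. In naive mice the Mo level minus the PMN level was -0.29 ± 0.12 (adjusted p = 0.0389) after joint normalization but 0.32 (adjusted p = 0.0451) on the deposited values and 0.03 (adjusted p = 0.867) with each array centred, so no order is given there. The summed proliferation markers were higher at 6 weeks in both subsets, and their part in the Slc7a1 changes was not tested.

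Odc1, the first enzyme of polyamine synthesis, was measured by 2 features that went different ways, so its result rests on which one is read. The one with the higher mean, which is the one counted here, had Mo levels of 8.90, 9.03 and 8.02 in naive mice (8.65 ± 0.55 SD, n = 3), 8.81, 8.74 and 8.50 at 3 weeks (8.68 ± 0.16 SD, n = 3) and 8.96, 8.90 and 9.003 at 6 weeks (8.95 ± 0.05 SD, n = 3). Its PMN levels were 8.46, 8.53, 8.49 and 8.57 in naive mice (8.51 ± 0.05 SD, n = 4), 8.60 and 8.87 at 3 weeks (8.73 ± 0.19 SD, n = 2) and 7.97 and 7.94 at 6 weeks (7.95 ± 0.02 SD, n = 2). Naive Mo replicate 3 was the lowest of the 9 Mo arrays, and the 2 PMN arrays of 6 weeks were below the other 6. In Mo cells the difference between 6 weeks and naive was 0.30 ± 0.18 (adjusted p = 0.166, limma), and -0.01 without naive replicate 3. In PMN cells it fell by 0.56 ± 0.19 from naive to 6 weeks (adjusted p = 0.0172, limma). From 3 to 6 weeks it fell there by 0.78 ± 0.22 (adjusted p = 0.00759). With the mean of both features both PMN calls were lost (-0.19, adjusted p = 0.298, and -0.33, adjusted p = 0.13). The call from 3 to 6 weeks was also lost without PMN replicate 2 at 3 weeks (-0.65).

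The other Odc1 feature rose in Mo cells instead and gave no call in PMN cells. Its Mo levels were 7.69, 7.69 and 7.27 in naive mice, 7.80, 7.66 and 7.45 at 3 weeks and 8.10, 8.58 and 8.60 at 6 weeks, so the 3 arrays of 6 weeks were above the other 6. Its 8 PMN levels lay between 6.87 and 7.47, and the stages overlapped. In the limma fit of all 35557 features, it rose by 0.88 ± 0.18 in Mo cells from naive to 6 weeks (adjusted p = 0.00341), where 38% of features were called, and its PMN difference was 0.17 (adjusted p = 0.45), where 53.6% were. Across arrays the 2 features had a Pearson correlation of 0.67 over the 9 Mo arrays and -0.31 over the 8 PMN arrays, given as a description of arrays that share groups. Among the 20 features with the nearest numbers, 17 around this feature were annotated to chromosome 12, where Odc1 lies, and 20 around the one with the higher mean to chromosome 8. Whether both report the same transcript was not tested. The Mo change minus the PMN change was 0.86 ± 0.26 with the first feature (adjusted p = 0.0302) and 0.70 with the other (adjusted p = 0.0596, limma over genes); the first was also lost with each array centred (adjusted p = 0.0506) and without Mo replicate 3 (0.0554), PMN replicate 1 (0.0897) or 2 (0.107) at 6 weeks, or naive PMN replicate 4 (0.0544).

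**Figure D2:**
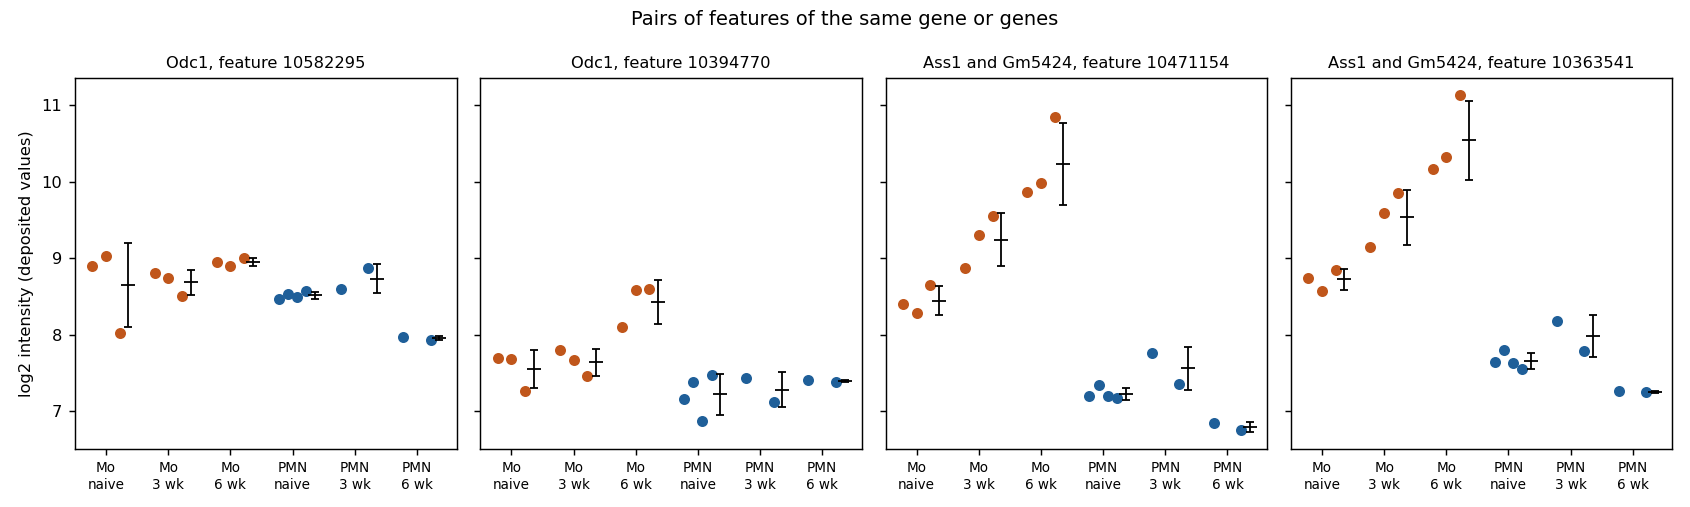
Log2 intensity of the 2 Odc1 features and the 2 features shared by Ass1 and Gm5424 on each array (points) in the 6 groups, with the group mean and SD in black. The Odc1 features differ in how PMN cells at 6 weeks lie against the other PMN groups, whereas the shared features follow each other on all 17 arrays.

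The features shared by Ass1 and Gm5424 had larger Mo changes than any of the 6 genes. One lay at 8.74, 8.58 and 8.85 in naive Mo cells, 9.15, 9.59 and 9.86 at 3 weeks and 10.17, 10.33 and 11.13 at 6 weeks, so the 3 stages did not overlap. In PMN cells it lay at 7.64, 7.80, 7.63 and 7.55 in naive mice, 8.18 and 7.79 at 3 weeks and 7.26 and 7.24 at 6 weeks. The second feature followed it with a Pearson correlation of 0.9988 over the 9 Mo arrays and 0.9946 over the 8 PMN arrays. The features rose from naive to 6 weeks in Mo cells by 1.82 ± 0.22, or 3.53-fold (adjusted p = 7.29e-05, limma over 35557 features), and by 1.79, or 3.45-fold (adjusted p = 9.91e-05). The 3-week difference from naive was 0.81 (adjusted p = 0.0809) and 0.79 (adjusted p = 0.0867), where 0.233% of features were called. The rises from 3 to 6 weeks were 1.01 (adjusted p = 0.0117) and 0.99 (adjusted p = 0.0151), where 4.76% were called. In PMN cells both fell from 3 to 6 weeks, by 0.73 (adjusted p = 0.0361) and 0.77 (adjusted p = 0.0329), where 46.7% of features were called, and the difference between 6 weeks and naive did not pass (-0.40, adjusted p = 0.151, and -0.44, adjusted p = 0.129). The Mo change minus the PMN change was 2.22 ± 0.32 for both from naive to 6 weeks (adjusted p = 0.000526 and 0.000606), where 11.5% of features were called. Ass1 lies on chromosome 2 and Gm5424 on chromosome 10, and how much of the signal belongs to each cannot be told apart with shared probes.

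The calls of the 6 genes are given here beside the share of all genes called in the same comparison. None was called by limma from naive to 3 weeks in either subset, where 6.03% of the 19938 genes were called in Mo cells and 0% in PMN cells. At an unadjusted p below 0.05 (limma), 1 was higher and 2 lower in Mo cells, and 0 in PMN cells. The share of all genes at that limit was not counted, here or for the lists below, so these counts are not read as a result. From naive to 6 weeks in Mo cells, Arg2 and Slc7a1 were called higher and Nos2 lower, where 46.2% of genes were called, 21.8% higher and 24.4% lower. From 3 to 6 weeks in Mo cells only Slc7a1 was called, higher, where 7.51% of genes were called and 4.38% higher. In PMN cells from naive to 6 weeks Arg1, Nos2, Slc7a2, Slc7a1 and Odc1 were called lower and Arg2 was not called, where 65.4% of genes were called and 40% were called lower. From 3 to 6 weeks Arg1, Nos2, Slc7a1 and Odc1 were called lower, where 58.7% of genes were called and 34.9% lower. With each array centred on its median only Odc1 kept that call. Arg1 was then -0.18 (adjusted p = 0.23) and Slc7a1 -0.29 (adjusted p = 0.25, limma). After joint quantile normalization Arg1, below background on every array, was -0.21 (adjusted p = 0.151) and Slc7a1 -0.68 (adjusted p = 0.00176, limma).

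The 5 PMN falls depended on the scale. Centring each array on its median added 0.20 to every PMN change from naive to 6 weeks, the largest shift of a within-subset change from naive, and then 0 of the 6 genes were called: Arg1 was -0.24 (adjusted p = 0.0612), Nos2 -0.21 (0.202), Slc7a2 -0.06 (0.633), Slc7a1 -0.29 (0.162) and Odc1 -0.36 (0.119, limma). After joint quantile normalization 3 were called. Nos2 was also lost without PMN replicate 1 (0.0795) or 2 (0.114) at 6 weeks or naive replicate 3 (0.0612). Slc7a2 was lost without either array of 6 weeks (0.124 and 0.0914) or naive replicate 1 (0.0535) or 4 (0.0575), and Odc1 without either array of 6 weeks (0.0729 and 0.0895).

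**Figure D3:**
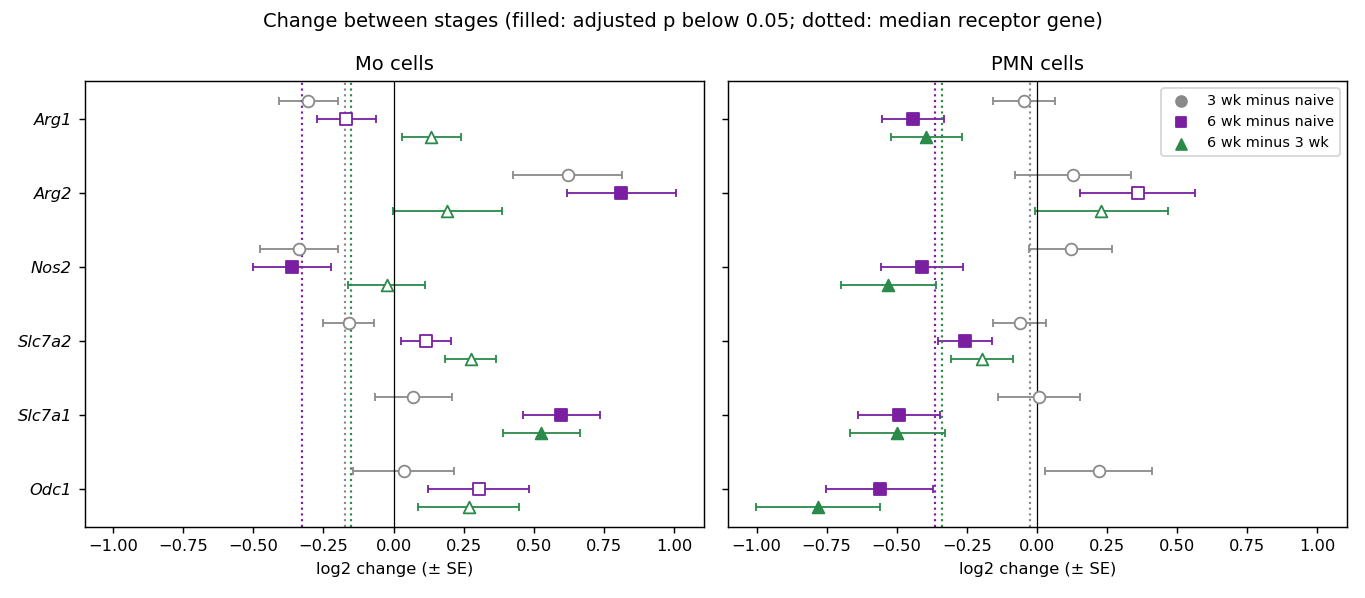
Log2 change of the 6 genes between stages in Mo cells (left) and PMN cells (right), with SE; filled symbols passed an adjusted p below 0.05 in limma and dotted lines mark the median receptor gene in the same comparison. In PMN cells the falls of Arg1, Nos2 and Slc7a2 at 6 weeks lie near the dotted line at -0.36, and Arg2 lies to the right of 0.

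The differences of change between subsets were called for 2 of the 6 genes from naive to 6 weeks (Slc7a1 and Odc1), where 17.5% of genes were called and 6.47% higher, and for 4 from 3 to 6 weeks, where 29.2% were called and 11.9% higher. The 2 further genes were Arg1 (0.53 ± 0.16, adjusted p = 0.0244) and Slc7a2 (0.47 ± 0.14, adjusted p = 0.0217, limma), both below background, where the median receptor gene differed by 0.20. With each array centred these were 0.32 (adjusted p = 0.152) and 0.26 (adjusted p = 0.195), and after joint quantile normalization 0.42 (0.0501) and 0.33 (0.0866). Both calls were also lost without Mo replicate 3 or PMN replicate 1 at 3 weeks, or PMN replicate 1 or 2 at 6 weeks, and that of Arg1 without Mo replicate 2 at 6 weeks. Odc1 differed by 1.05 ± 0.28 (adjusted p = 0.0117), and by 0.68 with its other feature (adjusted p = 0.0654); its call was lost without PMN replicate 2 at 3 weeks (0.0654).

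Around these genes, 8 lists of other pathway genes held 87 genes, of which 78 were measured. In Mo cells from naive to 6 weeks 27 were called higher and 15 lower, with a median change of 0.10 against -0.09 over all genes, of which 21.8% were called higher and 24.4% lower. In PMN cells 31 were called higher and 26 lower, with a median of -0.03 against -0.18, where 25.5% of all genes were called higher and 40% lower. The counts of each list at 6 weeks below stand against these shares, and the lists are small. In Mo cells at 3 weeks 10 were called higher and 1 lower, where 5.2% and 0.833% of all genes were.

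Of 11 measured genes of ornithine and polyamine handling, 6 were called higher and 1 lower in Mo cells at 6 weeks (median 0.34). They included Azin1, which blocks the inhibitor of ornithine decarboxylase (0.97 ± 0.16, adjusted p = 0.000358), Oat, which links ornithine to proline and glutamate (0.86 ± 0.13, adjusted p = 0.000136), and Dohh, which completes the polyamine-derived modification of eIF5A (0.81 ± 0.15, adjusted p = 0.00075; above background on 1 of 3 naive Mo arrays). In PMN cells 5 rose and 2 fell (median 0.17), led by Oaz2, an inhibitor of ornithine decarboxylase (1.74 ± 0.17, adjusted p = 4.66e-07; at least 1.86-fold, the naive level being below background), Azin1 (1.53 ± 0.17, adjusted p = 2.05e-06) and Sat1, which acetylates polyamines (0.96 ± 0.20, adjusted p = 0.000782). The 3 genes with the largest difference in change between subsets were Oaz2 (Mo minus PMN -1.91 ± 0.23, adjusted p = 3.77e-05), Srm, the spermidine synthase (1.41 ± 0.24, adjusted p = 0.00063), and Sat1 (-1.24 ± 0.27, adjusted p = 0.00464, limma). Srm rose by 0.78 in Mo cells and fell by 0.63 in PMN cells.

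Of 6 genes of the urea cycle, Asl, which splits argininosuccinate to arginine, was higher at 6 weeks in both subsets (0.54 ± 0.13 in Mo and 0.57 ± 0.14 in PMN, adjusted p = 0.00408 and 0.00186), the naive PMN level being below background. It was the 1 called higher in each subset, beside 2 called lower in Mo and 5 in PMN cells. Of 11 genes of nitric oxide synthesis and its cofactor, 3 rose and 1 fell in Mo cells and 2 rose and 6 fell in PMN cells. Gch1, which starts synthesis of the cofactor tetrahydrobiopterin, rose by 0.45 in Mo cells (adjusted p = 0.031), where 1 of 3 naive arrays was above background, and was below background in every PMN group. Pts, a later enzyme of that route, rose by 1.39 ± 0.19 in PMN cells (adjusted p = 1.95e-05).

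Of 8 other arginine transport genes, only 4 were above background in any group. By limma 0 rose and 4 fell in Mo cells (1 and 4 at an unadjusted p below 0.05), and 2 rose and 5 fell in PMN cells. Among the Mo falls, Slc7a9 (-0.57) and Slc7a3 (-0.45) were above background in 0 groups and Slc7a4 (-0.38) in 1, where the median receptor gene changed by -0.33. Slc7a6 and Slc7a7, which exchange cationic for neutral amino acids, went opposite ways in PMN cells: Slc7a6 fell by 0.88 ± 0.11 (adjusted p = 3.75e-06) and Slc7a7 rose by 0.75 ± 0.14 (adjusted p = 0.000369). The Mo change minus the PMN change was 1.04 ± 0.14 for Slc7a6 (adjusted p = 0.000119) and -0.68 ± 0.20 for Slc7a7 (adjusted p = 0.0231, limma). Of 9 other arginine-using genes, 6 rose and 1 fell in Mo cells and 4 rose and 2 fell in PMN cells. The 1 Mo fall, Padi2, was the largest called change of that list there (-1.16 ± 0.13, adjusted p = 5.99e-06, limma). Padi4, which converts protein arginine to citrulline in neutrophils, rose by 2.17 ± 0.15 in PMN cells (adjusted p = 2.52e-08) and was 0.14 ± 0.15 in Mo cells (adjusted p = 0.426), where it was below background at every stage, and the difference was -2.03 ± 0.21 (adjusted p = 8.72e-06).

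Genes known to take part in inducing Arg1 or Nos2 in macrophages were measurable: all 11 on the Arg1 list and all 10 on the Nos2 list were above background in at least 1 group. Of the 11 on the Arg1 list, 5 rose and 2 fell in Mo cells and 7 rose and 0 fell in PMN cells by limma (7 and 1 at an unadjusted p below 0.05), where 25.5% of all genes rose. Of the 10 on the Nos2 list, 2 rose and 1 fell in Mo cells and 8 rose and 1 fell in PMN cells. Tlr4, the endotoxin receptor, rose by 1.16 ± 0.21 in Mo and 1.23 ± 0.22 in PMN cells (adjusted p = 0.000657 and 0.00023), with 1 of 3 naive Mo arrays above background. Irf1, a factor of the interferon response, fell by 1.05 ± 0.13 in Mo cells (adjusted p = 2.25e-05) and was 0.21 ± 0.14 in PMN cells (adjusted p = 0.188). Il10ra had the largest called Mo change of the Arg1 list, a fall of 1.27 ± 0.16 (adjusted p = 3.52e-05, limma).

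Of 12 genes of the amino acid response, which is known to act when amino acids run short, 4 rose and 3 fell in Mo cells and 2 rose and 5 fell in PMN cells. The largest of the Mo falls was that of Atf3 (-1.38 ± 0.26, adjusted p = 0.000973, limma). Asns, the asparagine synthetase, rose by 1.57 ± 0.13 in Mo cells (adjusted p = 4.78e-07), where 1 of 3 naive arrays was above background, and by 2.51 ± 0.14 in PMN cells (adjusted p = 4.82e-09). The naive PMN level was below background, so the PMN rise was at least 4.06-fold. Psat1, of serine synthesis, rose by 1.44 ± 0.19 in Mo cells (adjusted p = 3.82e-05) and was -0.22 ± 0.20 in PMN cells (adjusted p = 0.332), where it was below background at every stage; the difference was 1.66 ± 0.27 (adjusted p = 0.000515). Proliferation and precursor markers were higher at 6 weeks in both subsets, and their part in these list counts was not tested.

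**Figure D4:**
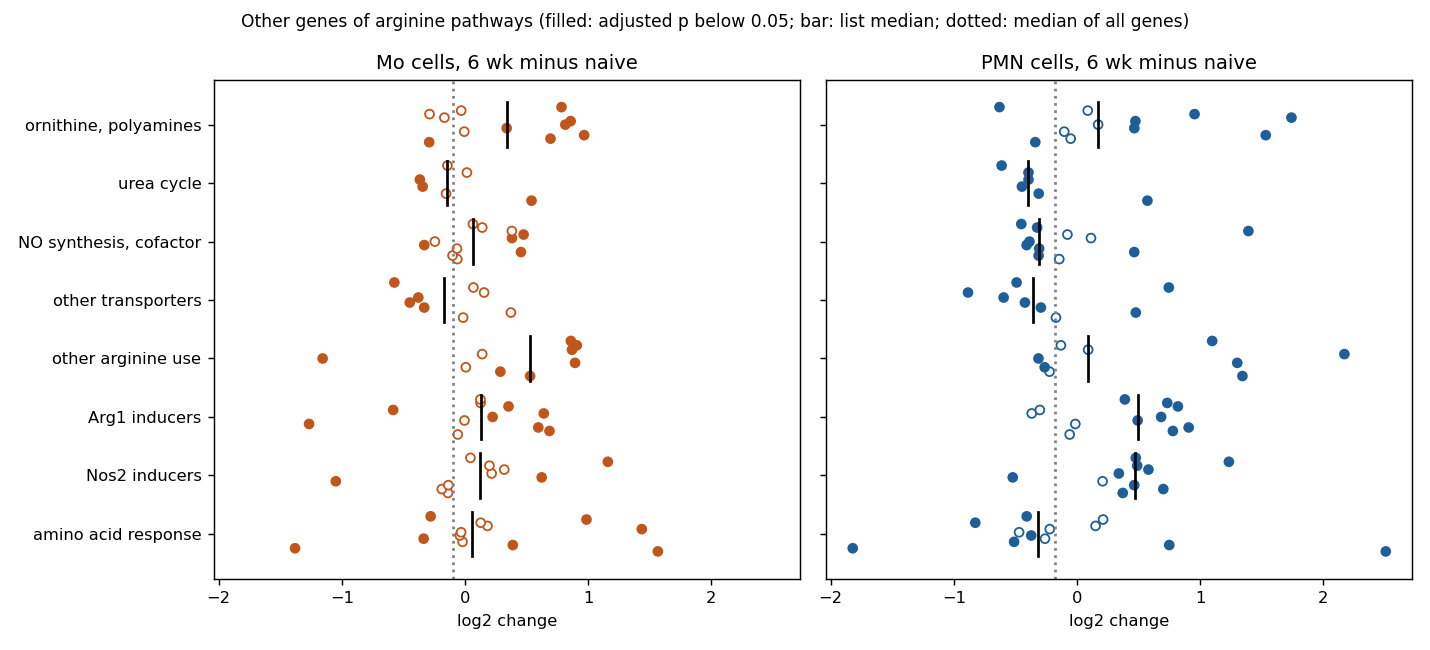
Log2 change from naive to 6 weeks of the 78 measured pathway genes (circles, grouped by list) in Mo cells (left) and PMN cells (right), filled where the adjusted p was below 0.05; a black bar marks each list's median and the dotted line the median of all genes. The farthest circles to the right in PMN cells are Asns at 2.51 and Padi4 at 2.17.

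The genes whose pattern over the 17 arrays was most like each measured gene were found by Pearson correlation after subtracting each subset's mean, among 11186 genes above background in at least 1 group. These arrays share groups and normalization, so the values are a description. For Slc7a1 they were Tmem97 (0.94), Strip2, Clybl, Eif2b3 (each 0.93) and Pdia5 (0.92). For Arg2 they were Gadd45a and Tbc1d15 (each 0.89), Cox7b, Bloc1s1 (each 0.88) and Marchf7 (0.87). For Odc1, with the feature of higher mean, they were Ppih (0.85), Metrn (0.82), Ppp1r14b (0.80), Ptdss2 and Rps2 (each 0.79). For Nos2 they were Orm2 (0.93) and Rhbg, Syt15, Nanog and Asap3 (each 0.92). Nos2 was above background on only 2 of the 17 arrays, and both its level and the background limit were lower at 6 weeks. The part of that background shift in its likeness values was not tested.

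By position on GRCm38.p6, Arg1 (feature 10368343) is at chr10:24915207-24927470, Arg2 (10396831) at chr12:79130788-79156301 and Nos2 (10379228) at chr11:78920787-78960226. Slc7a2 (10571444) is at chr8:40862341-40922070, Slc7a1 (10535852) at chr5:148327410-148399904, Odc1 (10582295, and 10394770 as the other feature) at chr12:17544808-17551502 and Ass1 (shared features 10363541 and 10471154) at chr2:31470270-31520670. These are whole-gene spans of the RefSeq annotation, not positions of the features. Which exons the probes cover is not given in the sources used here. Of the 20 features nearest in number, 20 around 10582295 were annotated to chromosome 8 and 19 around 10363541 to chromosome 10. The features shared by Ass1 and Gm5424 are attributed to neither gene.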

How the data were processed

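The authors' deposited values are linear intensities made with RMA, per the submitters' processing notes; no version or setting is given in the sources used here. They run from 9.76 to 32095 and were put on the log2 scale. Of 35557 features, 21789 carried 1 gene symbol, 1621 several and 12147 none; each of 19938 genes was read from its single feature or, for 999, from the one of highest mean. RefSeq GRCm38.p6 held the Entrez numbers of 21698. The median number of distinct values shared by 2 arrays was 942.5 within Mo, 251 within PMN and 146 across them, and upper-quartile intensities were 254 to 298 in Mo and 183 to 202 in PMN arrays, so the subsets were treated as normalized apart.

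One mean per group was fitted to 17 arrays by lmFit, contrasts.fit and eBayes of limma 3.58.1 (R 4.3.3), with no filter and no covariate. Tests were two-sided, adjusted by Benjamini-Hochberg over all genes of a comparison, with a threshold of 0.05. All adjusted p-values are limma's. Levels of Mo against PMN used joint quantile normalization. The 2 to 4 arrays a group limit the precision. No 2 arrays were copies of each other, and at most 2187 of the 35557 features had equal values in a pair of arrays. The fit was tested on simulated data. Same-numbered Mo arrays of 3 and 6 weeks deviated together (correlations 0.26 to 0.53), a pairing taken from the data, not from the labels; with naive arrays and in PMN cells they did not all do so.

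The genes and lists were chosen with earlier results of these data known. The text names all listed arginine genes and 5 genes by likeness. Of each pathway list, it names some of the up to 3 genes with the largest changes past the threshold in a comparison. Further list genes given for the same comparison were among those in another one.

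Alternatives were array centring, joint normalization, background floor, dim-gene filter, subset alone, array weights, trend and robust eBayes, feature means, replicate block and leaving out each array.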

Additional observations from a re-analysis of the deposited data

Results flagged for a closer look

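The change of a gene in Mo cells differed from that in PMN cells in 6 tested cases, by limma with Benjamini-Hochberg adjustment over all genes. From naive to 6 weeks the Mo change minus the PMN change was 1.09 for Slc7a1 and 0.86 for Odc1. From 3 to 6 weeks it was 1.02 for Slc7a1, 1.05 for Odc1, 0.53 for Arg1 and 0.47 for Slc7a2; the last 2 genes were below background on all arrays.

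Signal above the naive level also appeared in features outside the counts of genes called. The 2 features shared by Ass1 and Gm5424 rose by 1.82 and 1.79 (log2) in Mo cells from naive to 6 weeks, and the Odc1 feature with the lower mean rose by 0.88. No array stood apart from its group for any of the 6 genes in the 1 group of 4 arrays that could be tested.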

How the results depend on the processing

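Counts of the 6 genes called moved with several choices. The share of all genes called under each choice was not counted. With each array centred on its median they became 1 (from 0) for Mo at 3 weeks against naive, 0 (from 1) for Mo from 3 to 6 weeks, 0 (from 5) for PMN from naive to 6 weeks and 1 (from 4) for PMN from 3 to 6 weeks; for the difference of changes 1 (from 2) to 6 weeks from naive and 2 (from 4) from 3 weeks; and for Mo against PMN levels 1 (from 4) in naive mice and 2 (from 4) at 3 weeks. With joint quantile normalization they were 2 for Mo from 3 to 6 weeks, 3 for PMN from naive to 6 weeks, and 4 and 2 for the differences of changes to 6 weeks from naive and from 3 weeks. On the deposited values 2 levels were called at 3 weeks. With a floor at background they were 2, 2 and 2 for PMN from naive to 6 weeks, PMN from 3 to 6 weeks and the difference from 3 to 6 weeks, where dim genes gave no value. With dim genes left out (4 genes remained) they were 1 for Mo at 3 weeks, 3 for PMN from naive to 6 weeks, 2 for the difference from 3 to 6 weeks and 2 for levels at 6 weeks. With the Mo arrays alone 0 were called from 3 to 6 weeks. With array weights, whose estimation did not converge, they were 4 for Mo at 3 weeks, 3 for Mo from 3 to 6 weeks, and 2 and 4 for the differences to 3 and to 6 weeks from naive. With the mean of all features, or with the other Odc1 feature, 2 were called for Mo from 3 to 6 weeks, and with that feature 1 for the difference to 6 weeks. The cause was not tested beyond these settings. The last feature and the fit over all features were chosen after seeing the data.

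Leaving out 1 array gave 0 to 4 called for Mo at 3 weeks, 2 to 3 for Mo from naive to 6 weeks, 0 to 2 for Mo from 3 to 6 weeks, 0 for PMN at 3 weeks, 1 to 5 for PMN from naive to 6 weeks and 1 to 4 from 3 to 6 weeks. For differences of changes the range was 0 to 1, 1 to 3 and 2 to 5 (naive to 3 weeks, naive to 6 weeks, 3 to 6 weeks), and for levels 2 to 4, 2 to 4 and 4 to 5 (naive, 3 and 6 weeks). Where 1 PMN array remained in a group, it was assumed to vary like the other groups.

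Called values that changed sign were the Slc7a1 level of Mo minus PMN (array centring: 0.029 in naive mice and 0.22 at 3 weeks; deposited values: 0.32 and 0.38), the Odc1 level in naive mice (deposited values: 0.13), Nos2 in Mo from 3 to 6 weeks (array weights: 0.29, now called), and Odc1 in PMN cells with the other feature (0.17 from naive and 0.11 from 3 weeks to 6 weeks). Of all values of single genes under other settings, 1622 kept their direction and side of the threshold, 110 lost the call and 45 gained it.

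The replicate block, within each subset, gave 2 calls for Mo at 3 weeks (Arg1, adjusted p = 0.0232, and Arg2, 0.00818, limma) and 3 for PMN from naive to 6 weeks. For these comparisons the samples share only a number. Correlations of deviations between same-numbered arrays ran from -0.11 to 0.62 for naive against tumor-bearing Mo arrays, and from -0.47 to 0.02 in PMN cells. For Mo from 3 to 6 weeks the block changed no call. There too the labels give only a number, and the correlations were 0.26 to 0.53, against up to 0.22 for arrays of different number. The block could not be fitted for levels of Mo against PMN.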
